A study of Mus musculus with 6 samples.

Results

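The 10 genes described here are part of the core of the circadian clock and of its first output layer, measured in newborn mouse intestine with and without the adenosine analogue NECA. They were picked by name from the 54532 genes of the deposited tables. The genes are the activators Arntl and Clock, the repressors Per1, Per2 and Per3, the nuclear receptors Nr1d1 and Nr1d2, and the output factors Dbp, Tef and Hlf. Each name had 1 row, and all 10 passed the filter on low counts. The set was proposed after Dbp had come up among the genes with the smallest unadjusted p in NECA against DMSO. The values of that comparison are therefore given as a description and not as a test of the members.

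NECA (N-ethylcarboxamidoadenosine) activates adenosine receptors of several subtypes, and DMSO is the solvent that served as vehicle. The NECA group held 3 libraries of intestine from newborn C57BL/6 mice treated for 5 days with NECA, and the DMSO group held 3 libraries from newborn C57BL/6 mice treated with DMSO. The labels name no mutation and no other agent in either group. The title of the series names necrotizing enterocolitis, in which the bowel of newborns becomes inflamed and dies in parts, as the disease setting. The labels give no hour of tissue collection, no bowel segment and no route of dosing, and do not tell how many animals stand behind the 3 libraries of each group.

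In mammals the proteins CLOCK and BMAL1 (the product of Arntl) bind E-box elements as a pair and switch on the Per and Cry genes, whose products later shut that pair down. The same pair drives Nr1d1 and Nr1d2, whose REV-ERB proteins repress Arntl, so that Arntl RNA peaks out of phase with Nr1d1 and Dbp RNA. Dbp, Tef and Hlf encode PAR bZIP transcription factors that bind D-box elements in output genes and in clock genes. In gut epithelium the clock is known to time cell division and the uptake of nutrients.

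Stretches of 5 promoters show which of these elements stand near the starts of the members, read from RefSeq on GRCm38.p6 and printed 5′ to 3′ on the gene's strand, with an element in capitals. Promoters of 9 of the 10 members were in the table, with 14 starts in all and 300 bases each, and the stretches hold no base of an annotated exon. Arntl, Clock, Nr1d1 and Nr1d2 had none of the elements searched in their windows, and bases outside the windows were not searched. Dbp, the gene with the largest difference between the groups, had none in its window either. Its stretch at chr7:45704997-45705087 (plus strand) is shown for that reason.
Dbp: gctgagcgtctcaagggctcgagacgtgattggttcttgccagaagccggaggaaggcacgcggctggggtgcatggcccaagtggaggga
Tef, with the E-box at a downstream start, lies at chr15:81811244-81811313 (plus strand).
Tef: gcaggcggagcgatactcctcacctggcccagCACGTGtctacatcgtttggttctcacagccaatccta
Per1, also with an E-box, lies at chr11:69098751-69098820 (plus strand). This stretch belongs to a downstream start as well, since the annotated gene begins at 69095217.
Per1: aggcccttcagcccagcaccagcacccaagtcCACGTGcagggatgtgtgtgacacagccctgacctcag
Per3, with a pair of D-boxes, lies at chr4:151044784-151044902 (minus strand).
Per3: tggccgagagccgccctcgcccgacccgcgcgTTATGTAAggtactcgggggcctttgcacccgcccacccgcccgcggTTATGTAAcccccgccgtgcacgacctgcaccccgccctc
Hlf, with a cAMP response element, lies at chr11:90390918-90390958 (minus strand).
Hlf: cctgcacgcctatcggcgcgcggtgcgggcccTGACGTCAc
The E-box was searched as CACGTG, the D-box as TTATGTAA and TTACGTAA, and the cAMP response element as TGACGTCA, on both strands. None of these overlapped another in the members. CACGTG was present in 3 of the 14 member promoters (Per1 and both starts of Tef) and in 7.15% of all 32851 promoters. TTATGTAA was present in 1 of 14 (Per3, at 2 places) and in 0.938% of all promoters, and TTACGTAA in 0 of 14 and in 0.119%. TGACGTCA was present in 1 of 14 (Hlf) and in 1.79%. A match is a description of these letters and not evidence of binding.

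Total counts ran from 15531996 to 18065078 per library, and the members had between 68 and 1148 counts each in a library. NECA replicate 2 stood apart from the rest, where the median of its correlations to the remaining libraries was 0.943 across 15862 genes, against 0.970 to 0.985 for the others. Its ileal marker sum was the highest and its jejunal marker sum the lowest of the 6 libraries. The ileal list summed to 624, 3002 and 886 CPM (TMM-normalised counts scaled to library size) in NECA replicates 1 to 3 and to 444, 422 and 806 CPM in DMSO replicates 1 to 3. The jejunal list summed to 5239, 191 and 4950 CPM in NECA and to 5232, 4778 and 4971 CPM in DMSO. Mitochondrial transcripts took 3.63%, 1.31% and 2.8% of the counts in NECA and 4.49%, 8.39% and 3.61% in DMSO. Epithelial markers were abundant in every library, at a sum of 6447 to 10402 CPM in NECA and 9581 to 10593 CPM in DMSO. Pancreatic acinar markers were at or near 0, with a sum of at most 0.115 CPM in NECA and 0.502 CPM in DMSO. Xist and Y-linked transcripts placed NECA replicate 1 and DMSO replicate 2 apart as male, so that each group held tissue of more than 1 animal.

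Dbp, whose protein activates genes with a D-box, was the member with the largest difference and the only member in which the groups did not overlap. It had 19.5, 22.8 and 21.1 CPM in the NECA libraries, against 9.32, 13.9 and 6.75 CPM in the DMSO libraries. All 3 NECA libraries were close together and above every DMSO library, and NECA replicate 2 did not stand apart here. The group means were 21.1 ± 1.69 CPM in NECA and 9.97 ± 3.59 CPM in DMSO (SD, n = 3 each), a log2 fold change of 1.08 (SE 0.26). Without NECA replicate 2 it was 1.03, and over all fits without 1 library it ran from 0.87 without DMSO replicate 3 to 1.39 without DMSO replicate 2.

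Fold changes of bowel position and leukocyte markers leaned in a common direction within each list, while the sums of these 3 lists overlapped between the groups. The part of these markers in the difference of Dbp was not tested. All 9 jejunal and proximal markers had a negative log2 fold change (median -0.68, groups without overlap in 3), and all 8 ileal markers a positive one (median 1.71, none without overlap). Of all genes tested, 49.0% were positive. The groups were without overlap in 7.16% of them with NECA below DMSO and in 6.49% with NECA above. Without NECA replicate 2 most markers of both position lists kept their sign, mostly at a smaller size. The proximal markers Ada, Pdx1, Onecut2, Gkn3 and Bche still stood at -1.41, -2.95, -0.94, -0.60 and -0.39. The ileal markers Fgf15, Muc3, Osr2 and Fabp6 stood at 1.90, 1.19, 1.04 and 0.73. The ileal markers Gata6, Slc51a and Slc51b stood at 0.30, 0.24 and 0.18. The proximal markers Gata4 and Lct shrank to -0.06 and -0.12. The sign turned in the proximal markers Fabp1 (0.23) and Cyp3a11 (0.47) and in the ileal marker Slc10a2 (-1.70). Of the 9 tested leukocyte markers 7 had a negative log2 fold change, with a median of -0.52. The list summed to 490, 144 and 417 CPM in NECA and to 365, 401 and 445 CPM in DMSO. Csf1r alone made up most of that sum. It was at 455, 110 and 374 CPM in NECA and at 292, 338 and 382 CPM in DMSO, with overlap. The overlap of the leukocyte sum therefore says little about the other markers of the list. The pan-leukocyte marker Ptprc was at 14.5, 17.7 and 16.0 CPM in NECA and at 33.8, 24.0 and 27.1 CPM in DMSO, without overlap (log2 fold change -0.81, SE 0.18). Itgam, an integrin gene of myeloid cells, was without overlap as well (-0.91, SE 0.25). The 2 leukocyte markers with a positive log2 fold change were S100a8 (0.62, SE 0.53) and S100a9 (0.24, SE 0.66), both with overlap. The neutrophil marker Ly6g had 1 count, in DMSO replicate 1, and did not pass the filter, so it gives no direction. By edgeR's quasi-likelihood test 0 genes of these 3 lists passed after adjustment, as did 0 of all 15847 genes tested.

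Dbp (ENSMUSG00000059824) lies on chromosome 7 from 45705088 to 45710203 on the plus strand (GENCODE M21, GRCm38), and 539 of its 2993 exonic bases are also exonic in Sphk2, a sphingosine kinase gene on the minus strand. The strand setting of the counting is not given in the sources used here, so reads from that stretch cannot be assigned to 1 of the pair. Sphk2 was at 163, 71.4 and 163 CPM in NECA and at 157, 154 and 141 CPM in DMSO, and its groups overlapped. Its log2 fold change was -0.18 (SE 0.30), opposite in sign to that of Dbp. Sphk2 was lowest in NECA replicate 2, the library with the most Dbp.

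Tef and Hlf, which bind the same element as Dbp, did not share its separation. Tef (ENSMUSG00000022389, chromosome 15, 81802421 to 81826863) was at 50.0, 45.4 and 65.9 CPM in NECA and at 52.4, 70.5 and 50.0 CPM in DMSO. The groups overlapped fully, with a log2 fold change of -0.10 (SE 0.20). Its sign turned to 0.01 without NECA replicate 2 and 0.07 without DMSO replicate 2. Hlf (ENSMUSG00000003949, chromosome 11, 90336536 to 90390895) was at 6.53, 7.13 and 7.35 CPM in NECA and at 4.74, 8.57 and 4.25 CPM in DMSO. The NECA libraries were alike and lay above DMSO replicates 1 and 3 but below DMSO replicate 2. The log2 fold change of Hlf was 0.26 (SE 0.30), and 0.64 without DMSO replicate 2 or 0.08 without DMSO replicate 3.

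**Figure D1:**
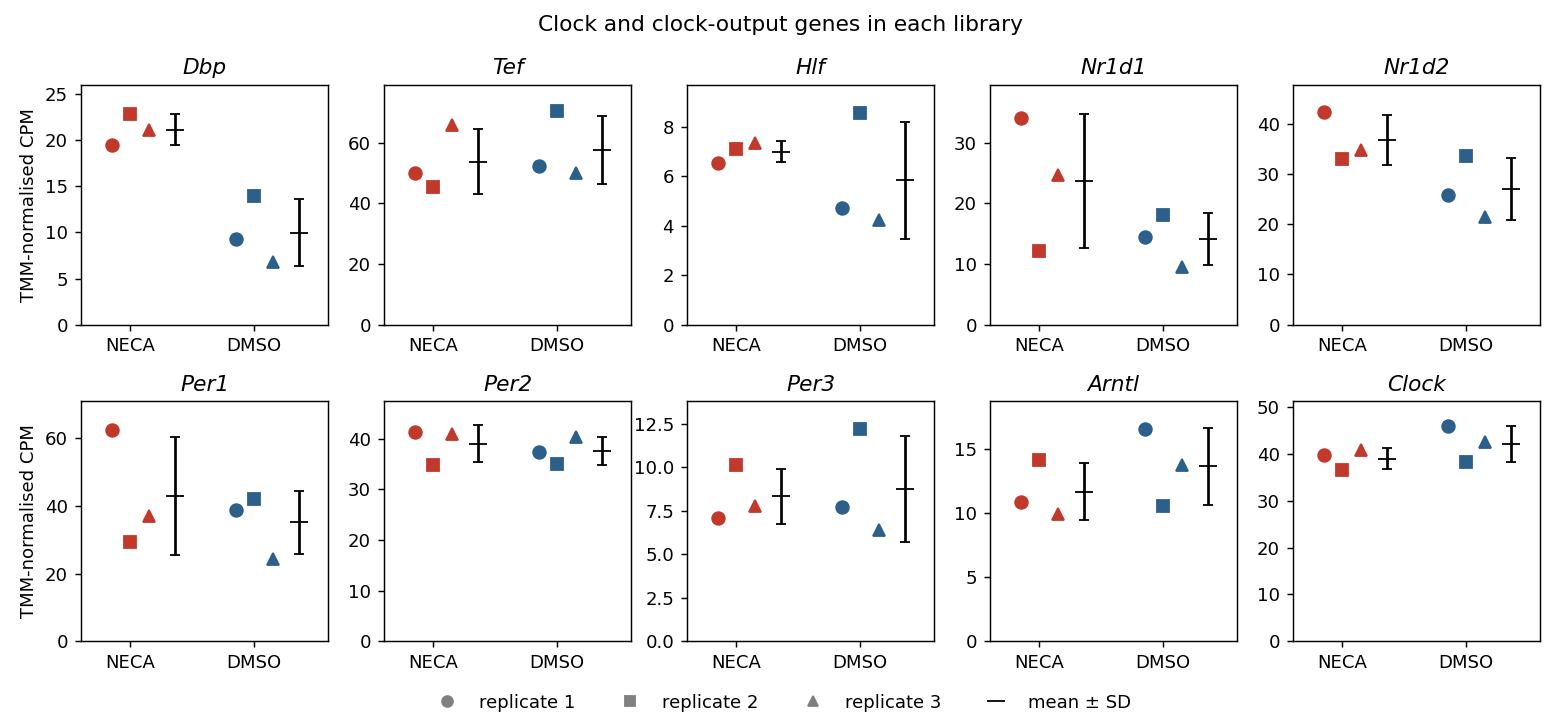
Levels of the 10 genes in TMM-normalised CPM in the 3 NECA libraries (red) and the 3 DMSO libraries (blue), with the group mean and SD in black and marker shapes for replicate numbers. Dbp is the gene whose groups do not overlap, at 19.5 to 22.8 CPM in NECA and 6.75 to 13.9 CPM in DMSO.

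The REV-ERB receptors were the members with the next largest fold changes, and in both the groups overlapped, with NECA replicate 2 the lowest NECA library. Nr1d1 (ENSMUSG00000020889, chromosome 11, 98767932 to 98775333), which encodes REV-ERB alpha, was at 34.1, 12.1 and 24.7 CPM in NECA and at 14.5, 18.1 and 9.57 CPM in DMSO. NECA replicates 1 and 3 were above every DMSO library, and NECA replicate 2 lay between DMSO replicates 3 and 1. The means were 23.6 ± 11.0 CPM in NECA and 14.1 ± 4.30 CPM in DMSO (SD, n = 3 each), a log2 fold change of 0.75 (SE 0.39). Leaving out NECA replicate 2 gave 1.07 (SE 0.27), and leaving out NECA replicate 1 gave 0.39. Nr1d1 shares 263 of 3077 exonic bases with Thra, a thyroid hormone receptor gene on the opposite strand, so its level carries the same uncertainty. Thra was at 125, 138 and 147 CPM in NECA and at 154, 146 and 126 CPM in DMSO, with a log2 fold change of -0.05 (SE 0.15).

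Nr1d2 (ENSMUSG00000021775, chromosome 14, 18204054 to 18239127), which encodes REV-ERB beta, was at 42.3, 32.9 and 34.8 CPM in NECA and at 25.9, 33.6 and 21.5 CPM in DMSO. Only the lowest NECA library, replicate 2, and the highest DMSO library, replicate 2, crossed. The means were 36.7 ± 4.98 CPM in NECA and 27.0 ± 6.12 CPM in DMSO (SD, n = 3 each), a log2 fold change of 0.44 (SE 0.20). Without a single library it ran from 0.31 to 0.63, the highest being without DMSO replicate 2. No other annotated gene overlaps Nr1d2.

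The Per genes, which encode the proteins that inhibit the CLOCK and BMAL1 pair, differed from each other in how much they varied. Per1 (ENSMUSG00000020893, chromosome 11, 69095217 to 69109960), which is also induced by cAMP and by glucocorticoids, was at 62.5, 29.2 and 37.1 CPM in NECA and at 38.9, 42.0 and 24.4 CPM in DMSO. A single library, NECA replicate 1, was high and the other 5 were intermixed. The log2 fold change of Per1 was 0.29 (SE 0.32), and -0.08 without NECA replicate 1. Per2 (ENSMUSG00000055866, chromosome 1, 91415982 to 91459324) was at 41.3, 34.8 and 40.9 CPM in NECA and at 37.4, 34.9 and 40.4 CPM in DMSO. It was among the steadiest members, with a log2 fold change of 0.05 (SE 0.14). Per3 (ENSMUSG00000028957, chromosome 4, 151003652 to 151044665) was at 7.11, 10.1 and 7.75 CPM in NECA and at 7.70, 12.2 and 6.38 CPM in DMSO. Replicate 2 was the highest library of each group, and the groups overlapped. Per3 lies within Camta1 on the same strand, over 41014 bases, and shares 0 exonic bases with it. Camta1 had 198, 259 and 201 counts in NECA and 208, 350 and 148 in DMSO, in the library orders of Per3. The part of Camta1 in the level of Per3 was not tested. The log2 fold change of Per3 was -0.08 (SE 0.29), and it turned to 0.03 without NECA replicate 1 and 0.24 without DMSO replicate 2.

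The activators Arntl and Clock were slightly lower on average in NECA, within the spread of the libraries. Arntl (ENSMUSG00000055116, chromosome 7, 113207465 to 113314126) was at 10.9, 14.2 and 9.93 CPM in NECA and at 16.6, 10.6 and 13.8 CPM in DMSO. DMSO replicate 2 had less Arntl than NECA replicates 1 and 2, so the groups overlapped. The log2 fold change of Arntl was -0.23 (SE 0.23), and -0.39 without NECA replicate 2 or -0.07 without DMSO replicate 1. Clock (ENSMUSG00000029238, chromosome 5, 76209868 to 76304792) was at 39.7, 36.5 and 40.8 CPM in NECA and at 45.9, 38.2 and 42.6 CPM in DMSO. Its libraries differed from each other by little, and its log2 fold change was -0.11 (SE 0.14).

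**Figure D2:**
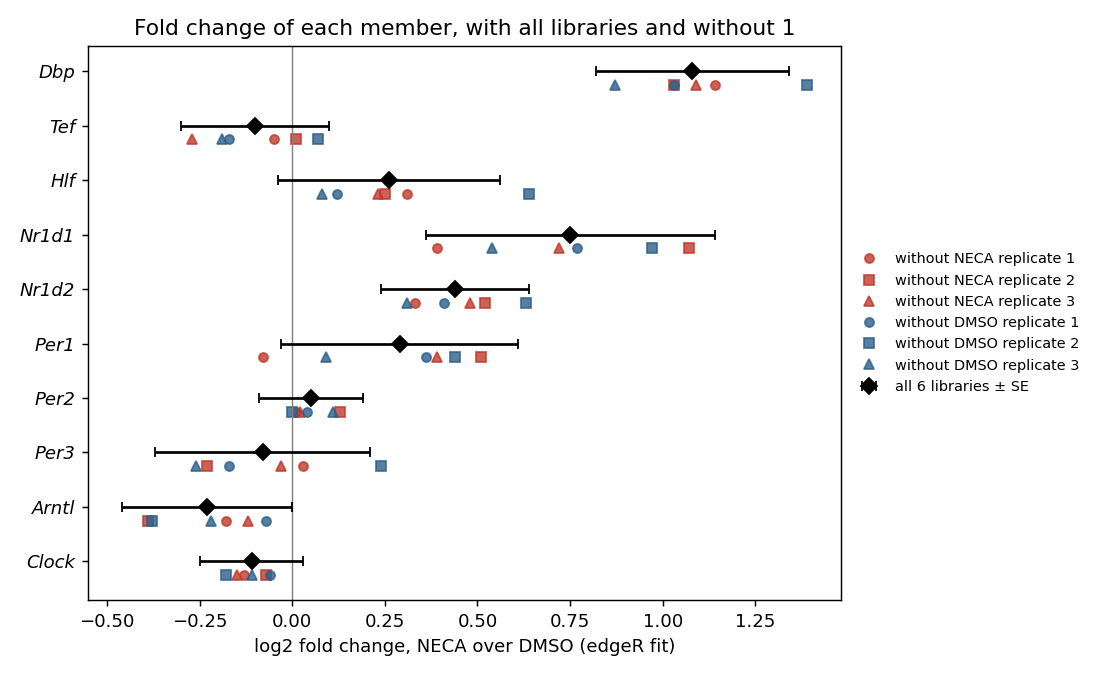
The log2 fold change of each gene, NECA over DMSO, in the edgeR fit with all 6 libraries (black diamond, bars are ± SE) and in fits without 1 library (coloured symbols). Dbp stays between 0.87 and 1.39, whereas Per1, Per3 and Tef cross 0 and Nr1d1 ranges from 0.39 to 1.07.

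Counted over the set, 6 members had a positive and 4 a negative log2 fold change, with a median of 0.16, whereas the median over all 15847 genes tested was -0.01 and 49.0% of them were positive. The groups did not overlap with NECA above DMSO in 1 of the 10 members, against 6.49% of all genes tested, and with NECA below DMSO in 0 members, against 7.16%. After Benjamini-Hochberg adjustment over all genes, edgeR's quasi-likelihood test called 0 of the 10 members and 0% of all genes. At an unadjusted p under 0.05 it called 1 member, Dbp, and 5.48% of all genes. DESeq2 called 0 members and 0.0695% of all genes, and without NECA replicate 2 it called 0 members and 0.186% of all genes. Dbp was part of what led to the set, so these counts support nothing about it.

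Because Arntl and Dbp are known to peak at opposite phases, their ratio within a library was taken as a measure that does not depend on library scaling. The log2 ratio of Dbp to Arntl CPM was 0.84, 0.69 and 1.09 in the NECA libraries and -0.84, 0.39 and -1.03 in the DMSO libraries. All NECA libraries were above all DMSO libraries, and DMSO replicate 2 was the DMSO library nearest to them. The means were 0.87 ± 0.20 in NECA and -0.49 ± 0.77 in DMSO (SD, n = 3 each). Most of that difference of 1.36 in the log2 ratio was the difference in Dbp itself. Dbp was part of what led to the set, so the separation of its ratio is a description and not a further test. The ratio of Nr1d1 to Arntl overlapped between the groups, at 1.65, -0.22 and 1.31 in NECA and -0.20, 0.78 and -0.52 in DMSO. So did that of Per1, at 2.53, 1.04 and 1.90 in NECA and 1.23, 1.99 and 0.83 in DMSO. The ratios of the other 6 members to Arntl overlapped as well.

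Within each group the members did not vary alike. In DMSO the 7 genes Dbp, Tef, Hlf, Nr1d1, Nr1d2, Per1 and Per3 were each highest in replicate 2, next in replicate 1 and lowest in replicate 3. Arntl and Clock were lowest in DMSO replicate 2, and Per2 was too. Of all genes tested, 21.6% had the order of the 7 and 39.5% were highest in DMSO replicate 2. The highest DMSO library exceeded the lowest by 2.05 times in Dbp, 2.01 times in Hlf, 1.92 times in Per3 and 1.90 times in Nr1d1, but by 1.16 times in Per2 and 1.20 times in Clock. DMSO replicate 2 was also the library with the most smooth muscle RNA and the male library of its group. All 6 smooth muscle markers were detected, and they summed to 1760, 1714 and 1861 CPM in NECA and to 1976, 3797 and 1448 CPM in DMSO, in the same order of DMSO libraries as the 7 genes. The mitochondrial share was likewise highest in DMSO replicate 2, at 8.39%, and lowest in DMSO replicate 3, at 3.61%. The parts of smooth muscle, of the mitochondrial share and of sex in that order were not tested. In bulk tissue fewer cells of a type and less RNA per cell cannot be told apart. The list of 7 neuron and glia markers summed to 200, 151 and 170 CPM in NECA and to 162, 234 and 155 CPM in DMSO, also highest in DMSO replicate 2.

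In NECA several members had another order, and its share among all genes was not computed. NECA replicate 2 stood apart from the other libraries. Whether low values in it were particular to these members was not tested. Nr1d1, Nr1d2, Per1 and Per2 were highest in replicate 1 and lowest in replicate 2, as was the mitochondrial share. NECA replicate 1 was also the male library of its group, and the parts of sex and of the mitochondrial share were not tested. With sex as a covariate the log2 fold change was 0.71 (SE 0.31) in Nr1d1, 0.45 (SE 0.15) in Nr1d2 and 0.23 (SE 0.23) in Per1. The highest NECA library exceeded the lowest by 2.82 times in Nr1d1 and 2.14 times in Per1. Dbp and Hlf were even among NECA libraries, at 1.17 and 1.13 times. Arntl and Per3 were highest in replicate 2, as was Dbp by a small margin. The biological coefficient of variation that edgeR assigned was 0.346 for Nr1d1 and 0.292 for Per1, the largest of the set, and 0.164 for Clock and 0.167 for Per2, the smallest, against a median of 0.234 over all genes tested.

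**Figure D3:**
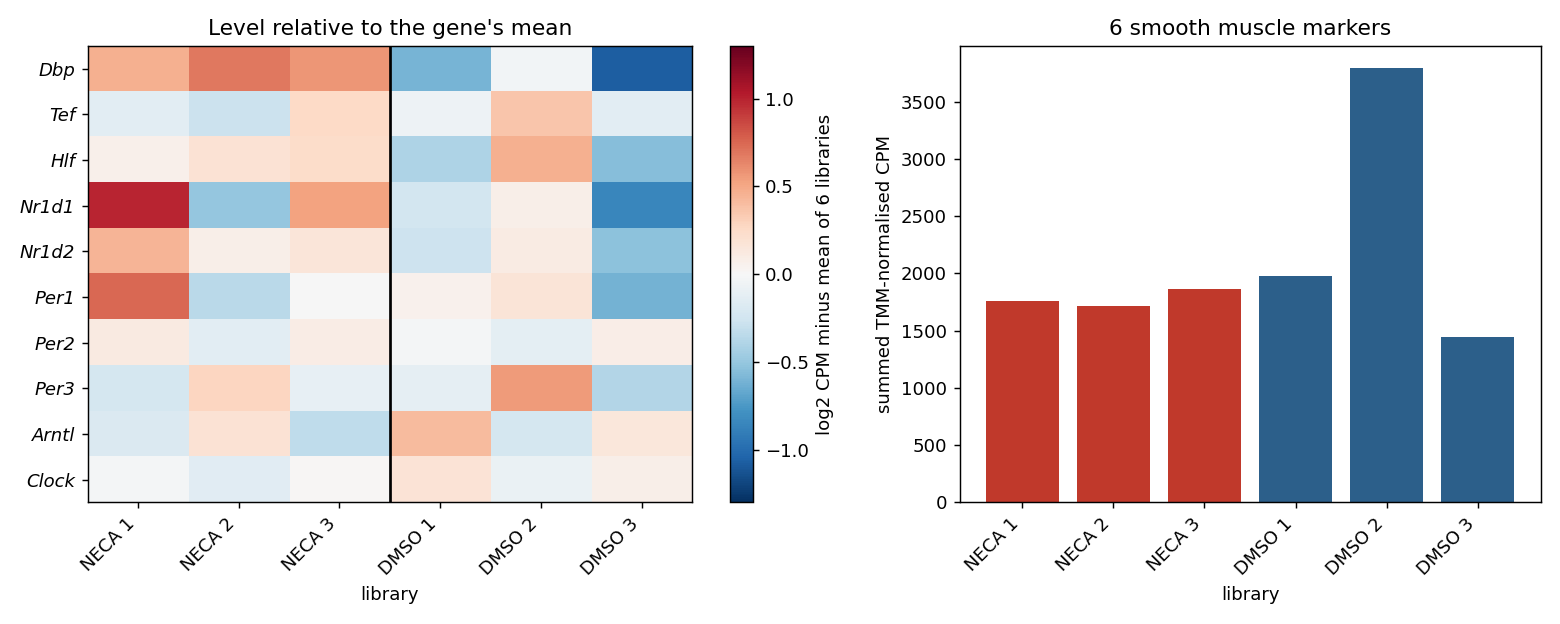
Left, log2 CPM of each gene in each library minus its mean over the 6 libraries (colour scale), NECA libraries left of the black line. Right, summed TMM-normalised CPM of 6 smooth muscle markers per library. DMSO replicate 2 is above the other DMSO libraries in 7 of the 10 genes and has the highest marker sum, 3797 CPM.

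Levels between genes were compared in FPKM, the deposited value scaled by transcript length and library size. Tef had the highest mean over the 6 libraries, 7.02 FPKM, followed by Per1 at 6.89, Per2 at 6.49, Nr1d1 at 6.10, Nr1d2 at 5.85 and Dbp at 5.16 FPKM. The ranges of these 6 overlapped from each gene to the next, so their order does not hold beyond the spread. Clock followed at 2.94 FPKM (range 2.63 to 3.31), and its range overlapped that of Dbp, whose lowest value was 2.24 FPKM in DMSO replicate 3. Arntl was at 1.67 FPKM (1.32 to 2.19), below every Clock value. Hlf at 0.954 FPKM (0.631 to 1.26) and Per3 at 0.881 FPKM (0.658 to 1.25) lay below every Arntl value and did not differ from each other beyond their spread. By group mean Dbp held rank 3 among the members in NECA, at 7.04 ± 0.499 FPKM, and rank 6 in DMSO, at 3.28 ± 1.16 FPKM (SD, n = 3 each). Dbp thus had several times the level of its relative Hlf in both groups, with Hlf at 1.05 ± 0.0566 FPKM in NECA and 0.863 ± 0.342 FPKM in DMSO. Nr1d1 held rank 1 in NECA, at 7.69 ± 3.65 FPKM, and rank 5 in DMSO, at 4.51 ± 1.35 FPKM (SD, n = 3 each).

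**Figure D4:**
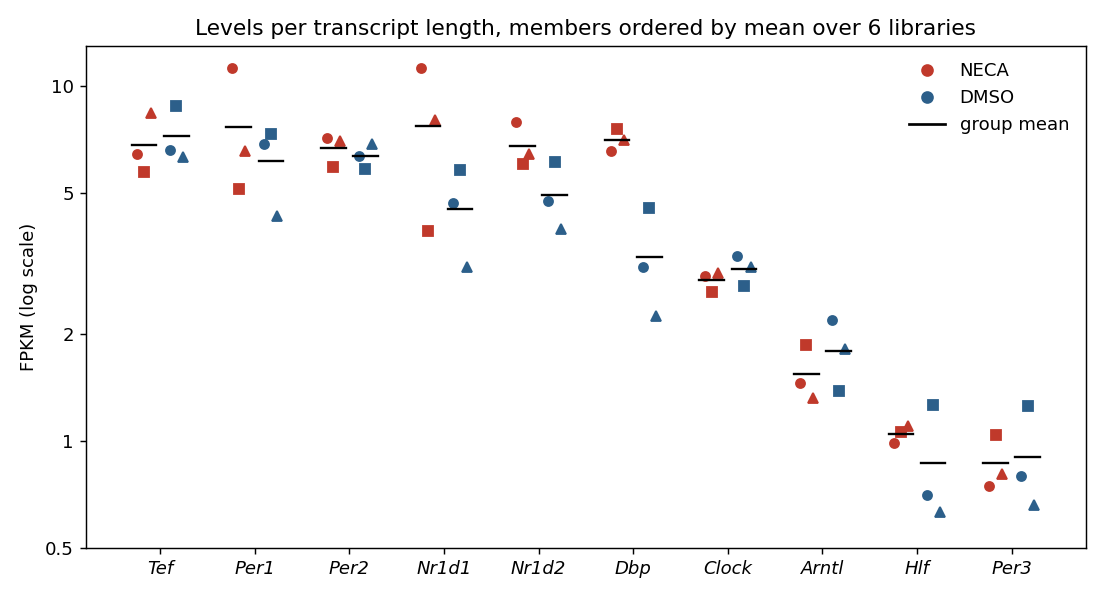
FPKM of the 10 genes on a log axis, ordered by the mean over 6 libraries, with NECA (red) left of DMSO (blue) and black lines at group means. Clock, Arntl, Hlf and Per3 lie below the other 6 by mean, and Dbp is the gene of the upper 6 with the lowest DMSO value, 2.24 FPKM.

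Other genes of the clock loops were divided in direction. Of 16 such genes, 15 passed the filter (Rorb did not), 7 had a positive and 8 a negative log2 fold change, the median was -0.03, and edgeR's quasi-likelihood test called 0 after adjustment. Nfil3, a repressor that competes with Dbp, Tef and Hlf for the D-box, was at 21.7, 17.9 and 20.9 CPM in NECA and at 31.4, 23.0 and 27.4 CPM in DMSO. Every NECA library was below every DMSO library, with a log2 fold change of -0.44 (SE 0.17), opposite in sign to Dbp. Timeless, which in mammals acts at replication forks, was at 16.7, 38.0 and 17.7 CPM in NECA and at 12.3, 14.7 and 15.6 CPM in DMSO (log2 fold change 0.76, SE 0.33, and 0.28 without NECA replicate 2). Every NECA library was above every DMSO library in Timeless.

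The groups overlapped in Cry1 and Cry2, which encode partners of the Per proteins, and in Npas2, a relative of Clock that can stand in for it. Cry1 was at 26.3, 32.6 and 21.4 CPM in NECA and at 24.3, 24.0 and 24.9 CPM in DMSO, and Cry2 at 26.6, 22.9 and 25.5 CPM in NECA and at 21.3, 24.5 and 19.9 CPM in DMSO. Npas2 was at 32.2, 15.9 and 24.2 CPM in NECA and at 30.6, 26.9 and 28.2 CPM in DMSO, lowest in NECA replicate 2 (log2 fold change -0.25, SE 0.25, and -0.02 without that library). Ciart, which encodes a repressor of the CLOCK and BMAL1 pair, was the least abundant loop gene named, at 2.0, 1.40 and 0.804 CPM in NECA and 0.558, 1.41 and 0.563 CPM in DMSO, with overlap (log2 fold change 0.74, SE 0.52).

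Output genes of the clock gave a like picture. Of 13, all tested, 8 had a positive and 5 a negative log2 fold change, with a median of 0.09 and 0 called by edgeR's quasi-likelihood test after adjustment. Tspan4, a tetraspanin gene, was the output gene without overlap, at 24.8, 27.0 and 26.7 CPM in NECA and 21.4, 20.9 and 20.8 CPM in DMSO (log2 fold change 0.32, SE 0.14). Usp2, a deubiquitinase gene, was at 8.40, 19.5 and 9.99 CPM in NECA and at 6.47, 9.97 and 7.19 CPM in DMSO, highest in NECA replicate 2 (log2 fold change 0.69, SE 0.35, and 0.23 without that library). Abcb1a, which encodes the drug efflux pump P-glycoprotein and is a known target of Dbp and Hlf, was at 44.8, 196 and 59.3 CPM in NECA and at 30.8, 11.4 and 75.9 CPM in DMSO, and its groups overlapped (log2 fold change 1.34, SE 0.75, and 0.40 without NECA replicate 2). Slc9a3, the sodium and hydrogen exchanger of the brush border, was at 230, 63.0 and 186 CPM in NECA and at 308, 196 and 190 CPM in DMSO, also overlapping.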

How the data were processed

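Per the labels' protocols, cDNA was made with SMARTer chemistry, amplified, fragmented and sequenced in paired ends. The authors deposited 1 whole-number count per gene and library, not normalized, and beside it an FPKM value, per the file headers. The submitters' processing notes name HISAT, StringTie, edgeR, mm10 and GRCm38; for versions, strand and multi-mapping the sources used here give no setting. Each FPKM equalled the count over the product of a gene value and a library factor, within a relative deviation of 7e-07. Coordinates are from GENCODE M21 (GRCm38), which held 99.77% of the identifiers.

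Low counts were removed in edgeR 4.0.16 (filterByExpr, at least 10 counts and a total of 15), and the rest were scaled by TMM and fitted in R 4.3.3 with edgeR's quasi-likelihood test (NECA over DMSO, 15847 genes), with Benjamini-Hochberg adjustment and a threshold of 0.05. The SE is the absolute fold change over the root of the F statistic. P-values measure only the spread between these libraries, and PCR copies could not be told from independent molecules, since the labels name no molecular identifiers. Alternatives were DESeq2 1.42.0, its size factors, other filters, robust dispersions, a replicate block, sex as a covariate and each library left out; DESeq2 without NECA replicate 2 was added after seeing the data. The fits were tested on simulated counts. Named were all members, up to 4 genes of each other list with the smallest unadjusted p and a mean of at least 1 CPM, always Cry1, Cry2, Npas2 and Nfil3, and the 5 genes most like Dbp; 1 gene that this rule names is not reported here. Members and lists were chosen with earlier results of these data known.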

Additional observations from a re-analysis of the deposited data

How the results depend on the processing

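With all libraries, edgeR's count of calls was 0 (868 of 15847 genes had an unadjusted p under 0.05), and it was 0 without any 1 library. It called 2 without the filter on low counts. DESeq2 called 11, and 30 without NECA replicate 2. None of the members was called in any of these fits. The cause of these differences was not tested. Of 140 refitted values of single members, 134 kept their sign and 6 did not. Per1 was -0.08 and Per3 0.03 without NECA replicate 1, Per3 0.24 and Tef 0.07 without DMSO replicate 2, and Tef 0.01 without NECA replicate 2 (0.02 with DESeq2). Over the fits without 1 library, Per1 ran from -0.08 to 0.51, Per3 from -0.26 to 0.24, Tef from -0.27 to 0.07 and the median of the members from 0.02 to 0.34. Same-numbered libraries did not deviate together (r of 0.009, -0.186 and -0.02 for numbers 1, 2 and 3). Differently numbered libraries ranged from -0.3 to 0.248, so this check cannot tell whether the numbers pair the libraries. With the replicate block edgeR called 0 genes, the log2 fold change of Dbp was 1.14 and the median of the members was 0.16. The log2 ratio of Dbp to Arntl differed by 1.36 in CPM and in FPKM. The library factors and gene values cancel in that difference, so the same value had to result and this is no check. With 3 libraries per group and members such as Hlf at 68 counts in a library, small differences were not detectable. The larger difference of Dbp, at a log2 fold change of 1.08 (SE 0.26), did not pass edgeR's adjustment either.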

Other observations

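Genes that respond to glucocorticoids or to cAMP, signals that also act on Per1, were looked at beside the clock. Of 11 glucocorticoid-induced genes 10 were tested, 6 with a positive and 4 with a negative log2 fold change and a median of 0.09, and edgeR's quasi-likelihood test called 0 after adjustment. Errfi1, a feedback inhibitor of the EGF receptor, was the gene of that list without overlap, at 75.9, 35.5 and 60.6 CPM in NECA and at 109, 123 and 83.1 CPM in DMSO (log2 fold change -0.87, SE 0.28). Fkbp5, a co-chaperone of the glucocorticoid receptor, was at 24.0, 27.3 and 17.5 CPM in NECA and at 18.7, 18.3 and 13.5 CPM in DMSO, with overlap. Klf9, a zinc finger factor, was at 56.0, 34.1 and 47.8 CPM in NECA and at 40.3, 28.9 and 33.6 CPM in DMSO, also with overlap. Cdkn1a, which encodes the cell cycle inhibitor p21, was at 60.7, 229 and 60.6 CPM in NECA and at 59.0, 50.9 and 98.0 CPM in DMSO, highest in NECA replicate 2, with a log2 fold change of 0.75 (SE 0.54) and -0.19 without that library. Of 12 cAMP-induced genes, all tested and Per1 among them, 6 were positive and 6 negative, with a median of -0.02, 0 called and none without overlap. The immediate early factor Egr1 was at 8.79, 11.8 and 7.92 CPM in NECA and at 10.9, 24.8 and 11.8 CPM in DMSO (-0.73, SE 0.35). Junb (-0.13, SE 0.16) and the phosphodiesterase genes Pde4b (-0.40, SE 0.22) and Pde4d (0.26, SE 0.19) were the others named by rank.

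Profiles over the 6 libraries were compared with that of Dbp by the root mean square difference in centred log2 CPM, among 13613 other genes. The nearest were Tent5b (0.20), Cox16 (0.26), Rps12-ps3 (0.29), Tceal5 (0.29) and Rps15a-ps6 (0.32). The last of these and Rps12-ps3 are pseudogenes of ribosomal protein genes, whose counts can be split with near-identical copies. Tent5b was at 2.20, 2.34 and 2.07 CPM in NECA and at 1.06, 2.07 and 0.813 CPM in DMSO. Among the other members Nr1d2 (0.40, place 35) and Hlf (0.42, place 53) were nearest to Dbp, and Arntl (0.81, place 10699) was farthest.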
